A study of Mus musculus with 447 samples.

Results

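The nuclear genes of the mitochondrial respiratory chain were described in 447 single cells of fetal mouse pancreas. They were taken from the gene files by symbol: every gene whose symbol starts with Nduf, Uqcr, Cox4, Cox5, Cox6, Cox7, Cox8 or Atp5, plus Sdha to Sdhd, without the 3 symbols that contain "-ps". This gave 92 of the 40824 genes. By textbook role, 7 are core subunits of complex I, 29 are its accessory subunits and 7 (Ndufaf1 to Ndufaf7) are factors that help to assemble it. Complex II has 4 members, complex III 8, complex IV 20 (Ndufa4 and Ndufa4l2, whose symbols recall complex I, are counted here) and complex V, the ATP synthase, 15. The remaining 2, Atp5s and Atp5sl, are named after the ATP synthase but are not subunits of it.

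Complexes I to IV pass electrons from NADH and succinate to oxygen. Complexes I, III and IV, but not complex II, pump protons out of the mitochondrial matrix, and complex V uses the returning protons to make ATP. Complexes I, III, IV and V combine subunits made from nuclear genes with subunits made from mitochondrial DNA, whereas complex II is nuclear only and is also an enzyme of the citric acid cycle. The 13 subunits encoded by mitochondrial DNA are not analysed here. In endocrine cells of the pancreas, ATP from this chain links nutrient supply to hormone release, and several complex IV subunits have a second gene that is used in particular tissues such as muscle, testis or lung.

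RNA was read by Smart-seq3, a plate method that captures polyadenylated RNA over its full length from 1 sorted cell per well. All cells came from E15.5 pancreas, were sorted for GFP, and carried a Pdx1-driven Cre recombinase and the Neurod1OE allele, with which the recombinase switches on NeuroD1, a transcription factor of endocrine cells. The design text names the recombinase as the tamoxifen-inducible Pdx1CreER. The cells labelled Pdx1CreNeurod1OE (here Neurod1OE) have no further allele, and those labelled Pdx1CreNgn3KONeurod1OE (here Ngn3KO) also have a floxed Ngn3 (Neurog3), the gene of the factor that normally precedes NeuroD1. No group without the Neurod1OE allele was analysed here, so no value below measures what NeuroD1 itself does. Of 212 Neurod1OE cells, 95 carry set number 3 in their title, and of 235 Ngn3KO cells, 30 do. The other 322 cells belong to set 2, and what a set is was not stated.

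Each deposited sample was 1 cell and no label named an animal or litter. Each group therefore counted as 1 sample, no p-value was computed, and the spread between animals is unknown. Counts were summed over the cells of a group and scaled to counts per 1000000 (CPM). A member counted as measured in a comparison if 1 side had 10 CPM or more and if 10% or more of that side's cells had a read, and as higher or lower when the ratio of CPM plus 1 reached 1.5-fold. Totals ran from 25769 to 2788066 reads per cell, with group medians between 344128 and 728074. Intervals are exact at 95% and cover counting error only.

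Set 2 and set 3 held different cells, which limits what their genotypes can show. In set 2, 94.87% of Neurod1OE and 98.05% of Ngn3KO cells were Gcg-high, meaning at least 1000 CPM of the glucagon gene and less than 1000 CPM of the acinar enzyme gene Cpa1. In set 3, the Neurod1OE cells comprised 31 Gcg-high cells, 15 Cpa1-high cells, 48 with neither and 1 with both, whereas 29 of the 30 Ngn3KO cells were Cpa1-high. In set 3, genotype thus went with cell state, and only Cpa1-high cells were present in number in both genotypes. Neurod1 stood at 332 and 292 CPM in Neurod1OE and Ngn3KO cells of set 2 and at 217 and 30.4 CPM in set 3. The library group labelled Ngn3KO in set 3 thus has little of the RNA that its label names. Neurog3 stood at 3.89, 3.06, 17.8 and 3.72 CPM in the same order, too low in 3 of the 4 groups to check the deletion.

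Within set 2, cells with low and high title numbers formed 2 blocks that were separated by reads of the predicted gene Gm12338. The lower-numbered block had 51 Neurod1OE cells and 50.24% of the Ngn3KO cells, and the higher-numbered block 66 Neurod1OE cells and the other Ngn3KO cells. By sex-linked transcripts, the lower-numbered Neurod1OE block held 48 male and 0 female cells and the higher-numbered block 64 female and 0 male cells, so block and sex cannot be told apart in this genotype. Both Ngn3KO blocks of set 2 were female (99 and 96 cells called, 0 male). All 30 Ngn3KO cells of set 3 were male, against 64 male and 27 female Neurod1OE cells. Of the members, 3 lie on the X chromosome (Ndufa1, Ndufb11 and Cox7b).

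The promoters of these genes are known for sites of NRF1, GABP and YY1, factors that tie nuclear genes to mitochondrial content. For 76 of the 92 members the RefSeq table (GRCm38.p6) held a window, of which the 250 bases before the gene start were searched on both strands. For NRF1 the letters were GCGCA, any base, then GCGC, and they stood in 25% of these members and in 7.17% of all protein-coding genes with a window. The letters CCGGAAG (GABP) stood in 22.4% against 12.9%, AAGATGGC (YY1) in 14.5% against 3.57%, and any of the 3 in 53.9% against 21.03%. Complex V had a match in 11 of 14 members and complex IV in 3 of 14. A match is a description of the letters and not evidence of binding. The first 3 of the 5 sequences below show the NRF1 letters, in capitals, in genes of complexes IV, II and V. Cox6a1 (chr5:115348959-115349208, minus strand), the common form of a complex IV subunit, also has the GABP letters on the other strand, as the capitals nearest to the start. Sdha (chr13:74350241-74350490, minus strand) encodes the flavoprotein of complex II and Atp5g2 (chr15:102671048-102671297, minus strand) a subunit of the proton-driven ring of ATP synthase. Atp5g3 (chr2:73911327-73911576, minus strand), another gene for the same ring protein, and Uqcr10 (chr11:4704345-4704594, minus strand), a small subunit of complex III, are shown because the first moved in both block comparisons of set 2 and the second was among the highest in set 3, and both have none of these letters in the window.
Cox6a1: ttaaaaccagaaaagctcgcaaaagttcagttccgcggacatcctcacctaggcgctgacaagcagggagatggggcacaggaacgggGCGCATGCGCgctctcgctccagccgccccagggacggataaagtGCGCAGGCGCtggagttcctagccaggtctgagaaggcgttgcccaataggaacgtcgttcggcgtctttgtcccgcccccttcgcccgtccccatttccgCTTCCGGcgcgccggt
Sdha: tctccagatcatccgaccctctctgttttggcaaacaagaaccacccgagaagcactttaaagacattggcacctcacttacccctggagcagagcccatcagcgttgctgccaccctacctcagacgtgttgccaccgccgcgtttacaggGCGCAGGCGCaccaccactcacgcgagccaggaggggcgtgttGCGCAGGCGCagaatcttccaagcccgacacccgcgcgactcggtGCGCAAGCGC
Atp5g2: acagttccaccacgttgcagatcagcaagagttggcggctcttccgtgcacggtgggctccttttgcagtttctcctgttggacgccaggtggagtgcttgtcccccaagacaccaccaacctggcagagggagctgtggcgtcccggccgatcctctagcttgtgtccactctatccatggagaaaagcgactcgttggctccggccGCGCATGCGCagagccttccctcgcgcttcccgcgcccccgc
Atp5g3: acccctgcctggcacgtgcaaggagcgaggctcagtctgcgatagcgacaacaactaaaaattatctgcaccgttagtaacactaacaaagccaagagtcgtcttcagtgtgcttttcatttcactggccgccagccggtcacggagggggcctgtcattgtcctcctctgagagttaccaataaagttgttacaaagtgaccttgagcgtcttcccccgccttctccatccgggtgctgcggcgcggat
Uqcr10: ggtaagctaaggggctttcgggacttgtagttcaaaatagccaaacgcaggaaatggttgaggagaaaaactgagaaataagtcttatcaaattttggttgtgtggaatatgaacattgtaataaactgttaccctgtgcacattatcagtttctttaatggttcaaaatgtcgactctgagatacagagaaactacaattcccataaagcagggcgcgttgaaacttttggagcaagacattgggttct

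Nearly every subunit gene was read in nearly every cell. The median cell of each group had reads of 81 of the 92 members, and of 80 after thinning to 165298 reads, for which 45 shallower cells were left out (2, 31, 9 and 3 in Neurod1OE and Ngn3KO of set 2 and then of set 3). Members took a median 2.35% of a cell's reads in Neurod1OE set 2 (0.821% to 3.40% over cells), 2.39% in Ngn3KO set 2 (1.46% to 4.12%), 2.38% in Neurod1OE set 3 (1.27% to 3.26%) and 2.93% in Ngn3KO set 3 (1.93% to 3.94%). The first 3 groups lay together and the fourth, almost all Cpa1-high, lay higher, with overlapping ranges. By cell state the Neurod1OE cells of set 3 had medians of 2.22% (Gcg-high), 2.40% (neither) and 2.76% (Cpa1-high). The Cpa1-high Ngn3KO cells had 2.88%. With the most abundant genes left out of each cell's total, the medians of Gcg-high, neither and Cpa1-high Neurod1OE cells were 2.51%, 2.44% and 2.88%, and that of Cpa1-high Ngn3KO cells was 3.35%. Which gap was larger, that between states or that between genotypes, thus depended on the total. These are shares of what was read: a larger share does not show more RNA per cell.

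**Figure D1:**
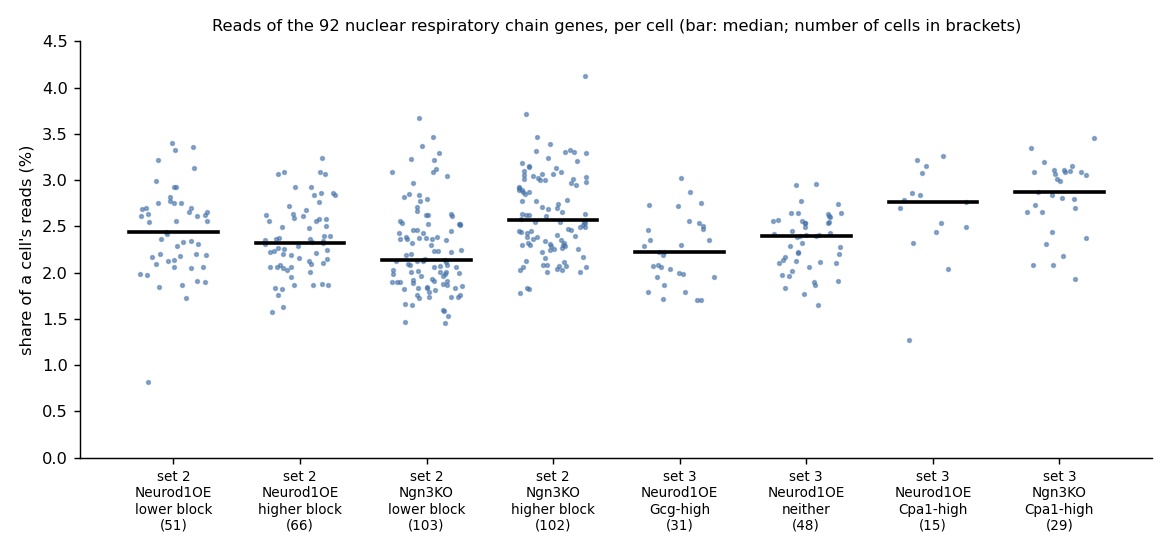
Share of each cell's reads (percent, vertical axis) that fell on the 92 members, 1 point per cell, by group and cell state, with the median marked. The Cpa1-high cells of both genotypes have the highest medians (2.76% and 2.88%), and the ranges of all groups overlap.

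By plain CPM, which is not divided by gene length, the highest member was Atp5b, the catalytic beta subunit of ATP synthase. It stood at 1311, 1239, 1334 and 1351 CPM in Neurod1OE and Ngn3KO cells of set 2 and then of set 3. Its level over single cells ran from 140 to 2689 CPM in Neurod1OE set 2 (median 1265), from 264 to 3548 in Ngn3KO set 2 (median 1135), from 304 to 4102 in Neurod1OE set 3 (median 1147) and from 725 to 2021 in Ngn3KO set 3 (median 1313). The 4 groups therefore overlapped throughout. Atp5a1, the alpha subunit that alternates with beta in the same ring, stood at 717, 707, 822 and 655 CPM. In complex IV, Cox5b had 705, 676, 611 and 736 CPM and Cox6b1 684, 679, 534 and 697. In complex III, Uqcr11 had 582, 647, 496 and 707 CPM and Uqcrh, the hinge protein, 451, 406, 511 and 668. By mean CPM over the 4 groups, the highest complex I members were the accessory subunits Ndufv3, at 597, 631, 320 and 261 CPM, and Ndufa1, at 459, 540, 372 and 274. These last 2 stood lower in set 3, and in Ngn3KO set 3 other accessory subunits exceeded both, such as Ndufb9 (528 CPM) and Ndufa6 (494). Of the assembly factors, Ndufaf4 (35.8, 39.3, 45.5 and 39.7 CPM) and Ndufaf2 (23.6, 24.2, 45.8 and 65.3) had the highest means over the 4 groups, but neither led in set 2, where Ndufaf7 and Ndufaf3 had more in Neurod1OE (46.1 and 43.7 CPM).

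Levels of different genes can be compared only per length, here as CPM per kilobase of exon averaged over the 4 groups. On this scale Uqcr11 led with 1366, followed by Cox6b1 (1049), Atp5e (1013), Cox6a1 (984), Ndufa1 (981), Cox8a (980), Uqcrh (931) and Atp5g3 (917). Atp5b, first by plain CPM, had 683 (rank 17), and Ndufv3 had 223 (rank 46). The ranks from Atp5e to Cox8a lie closer together than the 4 groups differ for each of these genes and give no order. Class medians of CPM per kilobase were 445 for complex V, 404 for complex III, 332 for the 19 complex IV genes with a read (Cox8c, at 0, is left out), 254 for the accessory and 114.1 for the core subunits of complex I, and 124.2 for complex II. The assembly factors, which act in the building of complex I and are not part of the finished enzyme, had a median of 13.2. Their highest value, 58.6, was below the lowest of complexes III (101.4) and V (92.9). It was above the lowest of the core (43.5) and accessory (12.5) subunits of complex I, of complex II (37.7) and of complex IV (0.045). Exon length was the union over annotated transcripts, which is long for Atp5g1 (4912 bases), Ndufab1 (4387) and Ndufb2 (4375) and lowers their value.

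Between the cells labelled Ngn3KO and Neurod1OE in set 2, nearly all of which expressed glucagon, there was almost no difference in these genes. Of 85 measured members, 0 were higher in Ngn3KO (3.38% of all 10010 measured genes were) and 1 was lower (7.22% of all genes). The median log2 ratio of the members was -0.03, beside -0.07 for all measured genes, and its sign turned under other scaling (0.030 with TMM factors, 0.039 with DESeq2 size factors). Class medians lay between -0.12 (assembly factors) and 0.01 (complex III). No p-value belongs to these counts, and with 1 sample per genotype a smaller difference cannot be told from that between animals. With female cells only, 2 members were called higher (7.38% of all genes) and 1 lower (9.59%). The female Neurod1OE cells came from the higher-numbered title block alone, described above, and the female Ngn3KO cells from both blocks. That setting thus adds a difference in block, whose part was not tested.

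The lower member was Cox4i2, the lung-type form of a complex IV subunit that is known to answer to low oxygen. Its level in single cells ran from 0 to 1097 CPM in Neurod1OE and from 0 to 245 CPM in Ngn3KO, with a median of 0 in both. Most cells thus had no read, and the groups overlapped. Summed, 1793 reads gave 23.7 CPM in Neurod1OE and 660 reads gave 8.28 CPM in Ngn3KO, a log2 ratio of -1.41. Reads of Cox4i2 were found in 19.7% (12.9% to 28.02%) and 17.6% (12.6% to 23.5%) of cells, and after thinning in 13.9% and 15.52%, so the direction of the CPM was not seen in the share of cells. At least 100 CPM was reached by 6 cells (5.13%) and 5 cells (2.44%), and the 3 cells with the most reads held 64.9% of the reads in Neurod1OE and 35.9% in Ngn3KO. Without the top cell of each side the log2 ratio was -1.17. Reads of pericyte and endothelial markers had a median of 0 CPM in these cells as in the rest, and their median Gcg was 6941 and 21058 CPM, against 75254 and 87477 CPM in cells without a Cox4i2 read.

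Within the 2 title-number blocks the genotype comparison took opposite signs. In the lower-numbered block, 18 of 85 measured members lay above 0 and the median log2 ratio was -0.15 (all genes -0.08), with 1 member higher (9.54% of genes) and 3 lower (13.6% of genes). The higher one was the assembly factor Ndufaf5 (5.32 to 10.1 CPM), and the lower ones were Cox4i2 (21.04 to 9.55), Ndufaf7 (54.2 to 28.5) and Atp5s (36.6 to 21.4). In the higher-numbered block, 61 of 85 lay above 0 and the median was 0.11 (all genes -0.07), with 0 higher (4.91% of genes) and 2 lower (10.3% of genes). These were Cox4i2 (26.5 to 6.77 CPM) and the assembly factor Ndufaf6 (17.3 to 10.7), whose log2 ratio became 0.14 with each cell weighted equally. Cox4i2 was the one member called in both blocks, but without the top cell of each side its log2 ratio was -0.12 in the lower-numbered block, and that of Ndufaf6 was -0.54 in the other, both inside the limit. In the lower-numbered block the genotypes also differed in sex, and its part was not tested.

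The blocks themselves differed more than the genotypes did. Between the higher-numbered and the lower-numbered block, 7 of 85 measured members were higher and 6 lower in Neurod1OE cells (17.2% and 18.7% of all genes), and 11 of 84 were higher and 3 lower in Ngn3KO cells (15.4% and 18.5% of all genes). Member medians of the log2 ratio were -0.08 and 0.15, beside -0.04 and -0.03 for all genes. The counts are near or below the background, and what follows describes which members they were. In complex V, 10 of its 15 members lay above 0 in Neurod1OE (median 0.15) and 14 of 15 in Ngn3KO (median 0.48), with 4 and 7 called higher and 0 called lower. Its summed share of a cell's reads had a median of 0.617% in the lower-numbered and 0.739% in the higher-numbered block of Neurod1OE, and of 0.525% and 0.855% in Ngn3KO. The accessory subunits of complex I went from 0.835% to 0.720% in Neurod1OE and from 0.749% to 0.779% in Ngn3KO.

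Atp5g3, 1 of 3 genes for the ring protein of ATP synthase and without any of the motif letters in the window printed above, had the largest positive log2 ratio between blocks in Ngn3KO and the second largest in Neurod1OE. There the assembly factor Ndufaf5 came first (5.32 to 12.3 CPM, log2 ratio 1.08). In Neurod1OE Atp5g3 ran from 13.4 to 1071 CPM (median 310) in the lower-numbered block and from 222 to 1143 (median 630) in the higher-numbered block. In Ngn3KO it ran from 41.2 to 655 (median 254) and from 201.5 to 1982 (median 761). The full ranges overlapped, but the quartile ranges did not: the upper quartile of the lower-numbered block was 406 and 375 CPM, and the lower quartile of the higher-numbered block was 462 and 556. Summed over cells, Atp5g3 went from 336 to 661 CPM and from 296 to 735 CPM, log2 ratios of 0.97 and 1.31. Atp5g2, which shares the ring protein and does have the NRF1 letters, went from 103.6 to 178.3 and from 100.6 to 172.5 CPM. Atp5g1 moved the other way, from 376 to 307 and from 365 to 312 CPM, within the 1.5-fold limit. Per kilobase, Atp5g3 made up 68.01% and then 74.9% of the reads of the 3 genes in Neurod1OE. In Ngn3KO it made up 65.9% and then 77.2%. These shares rest on the long exon length taken for Atp5g1 (4912 bases, against 724 for Atp5g3). In plain CPM, Atp5g1 was above Atp5g3 in the lower-numbered block of both genotypes.

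Other members that were higher in the higher-numbered block of both genotypes were Atp5b (1009 to 1623 and 889 to 1656 CPM), Atp5f1 of the stalk that holds the ATP synthase together (390 to 585 and 386 to 643), and Ndufv1, the NADH-binding core subunit of complex I. Ndufv1 had a median over cells of 29.3 and 133.2 CPM in the blocks of Neurod1OE and of 73.4 and 152.7 in those of Ngn3KO, and each block held cells without a read. In Ngn3KO alone, Sdhd, a membrane anchor of complex II, was also called higher (156.7 to 268 CPM). Members that were lower in both genotypes were the accessory subunits Ndufa3 (623 to 333 and 564.1 to 359 CPM) and Ndufa12 (415 to 241 and 402 to 248.8). Called lower in a single genotype were, among others, Ndufaf4 in Neurod1OE (47.1 to 24.2 CPM) and Uqcr10 in Ngn3KO (271 to 166.7).

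The 2 genotypes share no cell in this comparison, and their block differences went together. Across the 84 members measured in both, Spearman's rho between the log2 ratios was 0.71 and Pearson's r 0.73, against 0.52 and 0.52 across the 9667 genes measured in both. The points are genes of the same cells and not independent. The sign agreed for 55 of 84 members (65.5%, against 69.7% of all genes). The 5 members higher in both were 71.4% of those higher in Neurod1OE and 45.5% of those higher in Ngn3KO (40.8% and 45.01% for all genes). The 2 members lower in both were 33.3% and 66.7% of those lower (48.69% and 46.58% for all genes). Of the members, 0 were called in opposite directions, and such calls were rare among all genes too. Cytosolic ribosomal protein genes moved with the blocks, 42 and 39 of 85 being higher with medians of 0.58 and 0.54. In Ngn3KO 16 of 17 citric acid cycle genes lay above 0 (median 0.42). Since both Ngn3KO blocks were female, a difference in sex does not accompany the Ngn3KO values. What else separates the blocks was not tested.

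**Figure D2:**
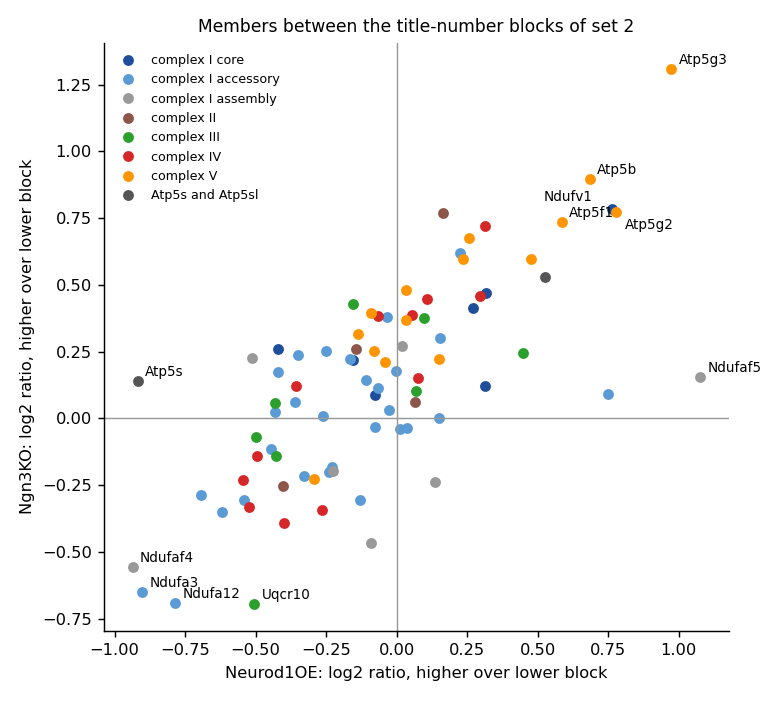
Log2 ratio of the higher-numbered over the lower-numbered title block of set 2 in Neurod1OE cells (horizontal axis) and in Ngn3KO cells (vertical axis), 1 point per measured member, coloured by complex. Atp5g3 (0.97 and 1.31) lies highest, Ndufaf5 (1.08) farthest to the right, and Ndufa3 and Ndufa12 lie below 0 on both axes.

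In set 3 the members stood at a similar level in the cells labelled Ngn3KO while the median gene was lower. Of 87 measured members 14 were higher (11.4% of all genes) and 8 lower (49.2% of all genes), with a median log2 ratio of 0.13 against -0.57 for all 10478 measured genes. Above the median of all genes lay 78 of the 87. Secreted acinar products took a large part of the Ngn3KO total: Clps alone stood at 36151 CPM against 3508. With the most abundant genes left out of the total, the median of all genes was -0.46 and that of the members 0.24. The part of these products in the lower gene median was not tested. Relative to all genes the members were 0.70 higher, and between 0.39 and 0.79 higher over the settings tried. The split of calls depended on the scaling, with 45 higher and 4 lower after edgeR's TMM factors (22.5% and 30.2% of all genes). It was 48 and 4 with DESeq2's size factors (23.4% and 29.1%) and 23 and 7 without the most abundant genes (13.3% and 44.2%). In male cells only it was 22 and 11 (13.6% and 50.3%). Nearly all of the Ngn3KO cells were Cpa1-high, so these values compare cell states as much as genotypes.

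The complexes differed within this comparison. Median log2 ratios were 0.45 for complex III, 0.41 for complex IV, 0.21 for complex V and 0.21 for the accessory subunits of complex I, but -0.31 for the core subunits of complex I, -0.20 for complex II and -0.59 for the assembly factors. Among members called higher, 6 were of complex V, 3 of complex IV, 2 of complex III and 3 were accessory subunits. Among those called lower, 4 were assembly factors, and 0 were accessory subunits or members of complexes III or V.

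Uqcr10 ran from 10.5 to 762 CPM over Neurod1OE cells (median 133.5) and from 177.7 to 774 over Ngn3KO cells (median 385). The lowest Ngn3KO cell thus lay above the Neurod1OE median, though the ranges overlapped. Its sum was 197.8 and 432 CPM, a log2 ratio of 1.12. The other members with the largest positive ratios were Cox7a1, described below with the tissue forms, Atp5o (389 to 705 CPM), which joins the head of ATP synthase to its stalk, and the complex IV subunit Cox7b (317 to 557). Cox7b is X-linked, and the Ngn3KO cells were male whereas the Neurod1OE cells were mixed. Ndufa4, now counted to complex IV, went from 454 to 747 CPM and Atp5g1 from 416 to 726, opposite to the small difference that Atp5g1 had between blocks.

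The lower members included the largest ratio of any member. Cox4i2 went from 13.96 CPM (991 reads) to 0.861 CPM (19 reads; 0.518 to 1.34 CPM), a log2 ratio of -3.01. Cells with a read were 11 of 95 and 3 of 30, and after thinning 11.6% and 3.70%, so these few cells set the ratio. The assembly factors Ndufaf6 (14.3 to 3.58 CPM, on 79 reads of which 3 cells held 75.95%), Ndufaf3 (41.3 to 18.9) and Ndufaf1 (27.6 to 12.6) followed. Ndufv1, higher in the higher-numbered blocks of set 2, was lower here: 122.9 CPM (median over cells 87.5) against 65.3 CPM (median 65.1). Sdha, a core enzyme subunit of complex II, ran from 19.7 to 695 CPM over Neurod1OE cells (median 209) and from 30.4 to 323 over Ngn3KO cells (median 138.9). Its sums were 255 and 153.2 CPM, with ranges that overlapped.

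**Figure D3:**
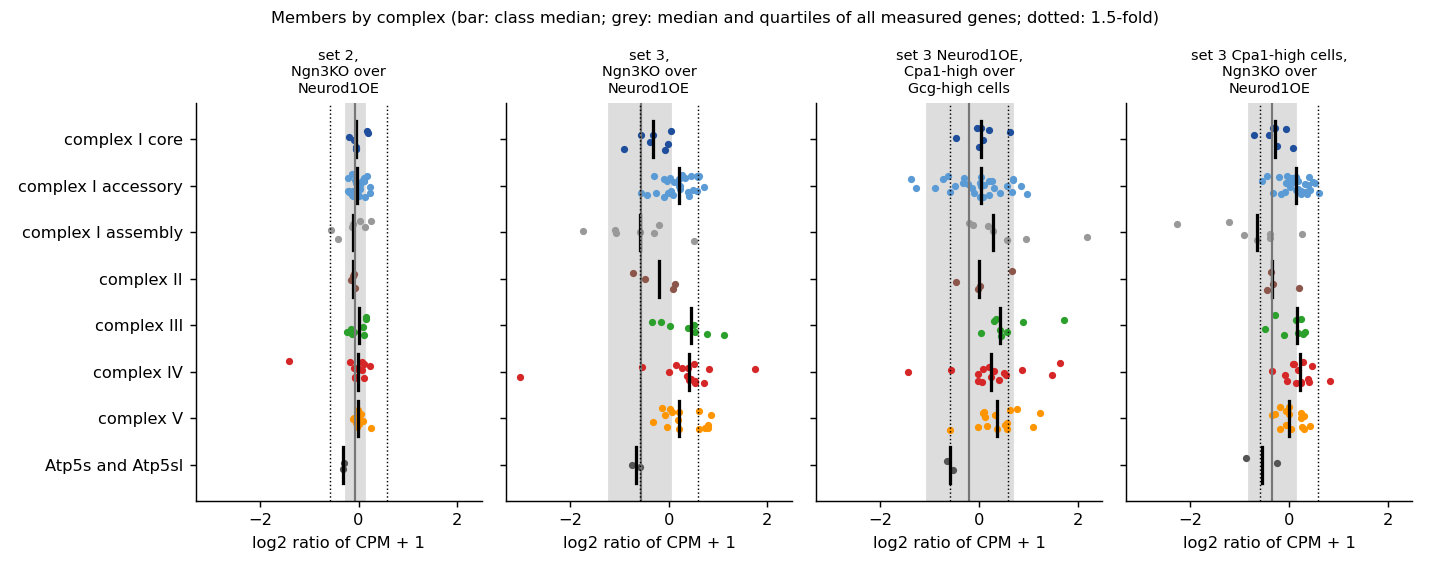
Log2 ratio of each measured member (horizontal axis), by complex (vertical axis), with class medians as bars. Panels show Ngn3KO over Neurod1OE in set 2, in set 3 and in the Cpa1-high cells of set 3. Another panel shows Cpa1-high over Gcg-high cells within Neurod1OE of set 3. Grey marks the median and quartiles of all measured genes, and dotted lines mark 1.5-fold. In set 2 most points lie near 0. In the genotype panel of all set 3 cells the class medians of complexes III, IV and V lie above the gene median of -0.57. There Cox4i2 of complex IV lies far below at -3.01, and the assembly factors spread from -1.74 to 0.50.

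Among Cpa1-high cells of set 3, fewer members differed. Marker levels also differed between these cells: acinar markers summed to 17481 CPM in Neurod1OE and 45677 CPM in Ngn3KO, pan-endocrine markers to 3238 and 724 CPM and markers of PP cells to 10778 and 240 CPM. The median cell had 164.3 and 162.1 CPM of pan-endocrine markers, so those sums came from a few cells. The part of these markers in the values below was not tested. Of 86 measured, 2 were higher in the 29 Ngn3KO than in the 15 Neurod1OE cells (9.74% of all genes) and 6 were lower (35.8% of all genes), with a median of 0.06 against -0.34 for all genes. The higher members were Cox7a1 (22.7 to 41.3 CPM) and Ndufb11, an X-linked accessory subunit of complex I (211 to 320). The lower members were 4 of the 7 assembly factors, Ndufaf6 (21.7 to 3.71 CPM), Ndufaf1 (31.8 to 13.1), Ndufaf5 (15.3 to 7.61) and Ndufaf3 (31.2 to 19.5), together with Atp5sl (32.9 to 17.6) and Ndufv1 (110 to 67.5). The assembly factors had a median of -0.65. Without the top cell of each side Ndufb11 (0.58), Ndufv1 (-0.57) and Atp5sl (-0.45) no longer reached 1.5-fold. The split was 18 higher and 3 lower under TMM factors (18.3% and 22.5% of all genes) and 17 and 4 under DESeq2's (17.9% and 22.97%). It was 5 and 4 without the most abundant genes (12.8% and 29.3%), and 7 and 6 in male cells only (14.65% and 41.99%). Of the other lists, 14 of 15 measured glycolysis genes were lower (median -1.13) and 8 of 23 mitochondrial import genes were lower (-0.33), while 5 of 85 cytosolic ribosomal genes were higher (0.28). Neurod1 stood at 37.8 and 14.3 CPM in these cells.

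Within Neurod1OE cells of set 3, the state of the cell could be compared without a change of genotype. Between Cpa1-high and Gcg-high cells, 18 of 87 measured members were higher (27.7% of all genes) and 8 lower (38.2% of all genes), with a median of 0.19 against -0.21 for all genes. All 8 members of complex III lay above 0 (median 0.44), as did 13 of 15 of complex V (0.37). The accessory subunits of complex I were split, with 5 higher and 5 lower and a median of 0.03. The split of calls was 29 higher and 4 lower under TMM factors (31.49% and 33.03% of all genes). It was the same under DESeq2's (31.5% and 33.02%), and 12 and 14 without the most abundant genes (24.53% and 42.53%). The count of higher members thus rests on the scaling. The cells also differed in growth: 16 of 16 cycling genes were higher (median 5.31), 82 of 85 cytosolic ribosomal genes (1.42), 38 of 76 mitochondrial ribosomal genes (0.56), 12 of 16 glycolysis genes (1.01) and 10 of 23 import genes (0.46). Their part in the respiratory chain values was not tested.

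For several members the median over single cells differed between the states, with ranges that overlapped. Uqcr10 ran from 10.5 to 264 CPM in Gcg-high cells (median 97.9), from 36.9 to 503 in cells with neither (median 137.6) and from 112.5 to 762 in Cpa1-high cells (median 368). Cpa1-high cells of Ngn3KO lay in the same place (177.7 to 774, median 375). The assembly factor Ndufaf2 had medians of 6.16, 15.3 and 66.4 CPM in these 3 Neurod1OE states and summed levels of 18.6, 42.2 and 88.5 CPM, with cells at 0 in each. Cox5a, the matrix-side subunit of complex IV, had medians of 29.3, 83.4 and 103.8 CPM and sums of 46.8, 106.4 and 147.8 CPM. Atp5g1 went from 302 to 718 and Atp5o from 275 to 589 CPM between Gcg-high and Cpa1-high cells. Uqcr10, Ndufaf2 and Cox5a thus had 1 order, lowest in Gcg-high and highest in Cpa1-high cells.

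Other complex I subunits went the opposite way. Ndufa1 ran from 132.7 to 1178 CPM in Gcg-high cells (median 597), from 40.7 to 737 in cells with neither (median 200) and from 116.3 to 1567 in Cpa1-high cells (median 187.7). The medians of the last 2 were close, and both lay far below that of the Gcg-high cells, though the ranges overlapped. Gcg-high cells of set 2 had medians of 416 and 496 CPM in Neurod1OE and Ngn3KO, and the Cpa1-high Ngn3KO cells 225. Ndufa1 is X-linked, and 25 of the 31 Gcg-high cells were male, against 6 of the 15 Cpa1-high cells and 32 of the 48 with neither. Ndufb4 had medians of 197.98, 84.4 and 103.8 CPM in the 3 states, and Ndufb2 (65.9 to 24.7 CPM) and Ndufv3 (432 to 261) were also lower in Cpa1-high than in Gcg-high cells.

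Between cells with neither marker and Gcg-high cells, 8 of 86 measured members were higher (31.6% of all genes) and 6 lower (21.1% of all genes), with a median of 0.09 against 0.18. Of the 8 higher members 4 were assembly factors (Ndufaf2, Ndufaf5, Ndufaf7 and Ndufaf3, class median 0.60). The sign of the member median depended on the scaling: it was -0.041 under TMM factors (4 higher, 10 lower), -0.060 under DESeq2's (3 and 12) and -0.052 without the most abundant genes (3 and 11). Of all genes, 26.9%, 26.2% and 26.6% were then higher and 24.7%, 25.2% and 24.97% lower.

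Gcg-high Neurod1OE cells of set 3 could be set against those of set 2, a comparison of sets within 1 state and genotype. The sides differed in sex, with 63 female and 44 male cells called in set 2 and 5 and 25 in set 3, and its part was not tested. Of 85 measured members, 3 were higher in set 3 (17.7% of all genes) and 8 lower (19.2% of all genes), with a median of -0.11 against -0.03. Higher were Atp5g2 (138.4 to 219 CPM), Atp5d (170 to 289) and Cox6b2 (4.34 to 16.1). Lower were, with the largest ratios, Ndufa12 (320 to 148.5 CPM), Uqcr10 (227 to 109.3), Ndufa5 (344 to 184.4) and Ndufa9 (167.3 to 93.2). Uqcr10 (log2 ratio -1.05) thus differed about as much between sets within Gcg-high cells as between genotypes in set 3 (1.12). Of these, Ndufa12 and Atp5g2 also differed between the blocks of set 2, which in Neurod1OE differ in sex. In the same comparison 16 of 16 cycling genes were lower in set 3 (median -4.18).

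The tissue forms of complex IV subunits were rare beside their common partners. Cox4i2 made up 4.23%, 1.59%, 2.17% and 0.136% of the Cox4 reads per kilobase in Neurod1OE and Ngn3KO cells of set 2 and then of set 3, the rest being Cox4i1 (522, 497, 610 and 614 CPM). Cox7a1, the heart and muscle form, made up 1.04%, 1.92%, 2.32% and 6.42% of the Cox7a reads per kilobase, beside Cox7a2 (363, 359, 432 and 614 CPM) and Cox7a2l. In Ngn3KO set 3 Cox4i2 was thus lowest and Cox7a1 highest, and in Neurod1OE set 2 the reverse held.

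Cox7a1 had a median of 0 CPM over cells in the first 3 groups, with highest cells at 45.7, 133.3 and 119.7 CPM, and a median of 17.3 CPM in Ngn3KO set 3, with a highest cell at 156.4. Sums were 3.97, 7.15, 11.2 and 39.9 CPM. Cells with a read were 21.4%, 28.3%, 28.4% and 63.3% (43.9% to 80.1% for the last), and after thinning 15.7%, 25.9%, 25.6% and 62.96%, so that here the share of cells and the CPM had the same direction. In Ngn3KO set 3, 15 of 30 cells reached 10 CPM, and 3 cells held 45% of the reads. The Cpa1-high cells of Neurod1OE were in between, with 22.7 CPM and reads in 7 of 15 cells. Summed mesenchymal markers stood at 171.8, 153.9, 243 and 1092 CPM and muscle markers at 6.40, 1.41, 12.7 and 16.1 CPM in the 4 groups, and their part in the Cox7a1 values was not tested. Cox6b2, the testis form of Cox6b1, had 4.69, 6.93, 12.8 and 14.3 CPM.

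The other tissue forms were at or near the limit of reading. Cox6a2, the muscle form of Cox6a1, had 22 reads, all in Neurod1OE set 3, and Cox8b had 6, all in Ngn3KO set 2. Cox7b2 had 2, 12, 20 and 0 reads and Ndufa4l2, known as a target of hypoxia, had 1, 0, 11 and 0. Cox8c had 0 reads in all 4 groups, which allows up to 0.0397, 0.0376, 0.0423 and 0.136 CPM. These 5 genes were measured in 0 of the 10 comparisons and enter none of the counts above.

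**Figure D4:**
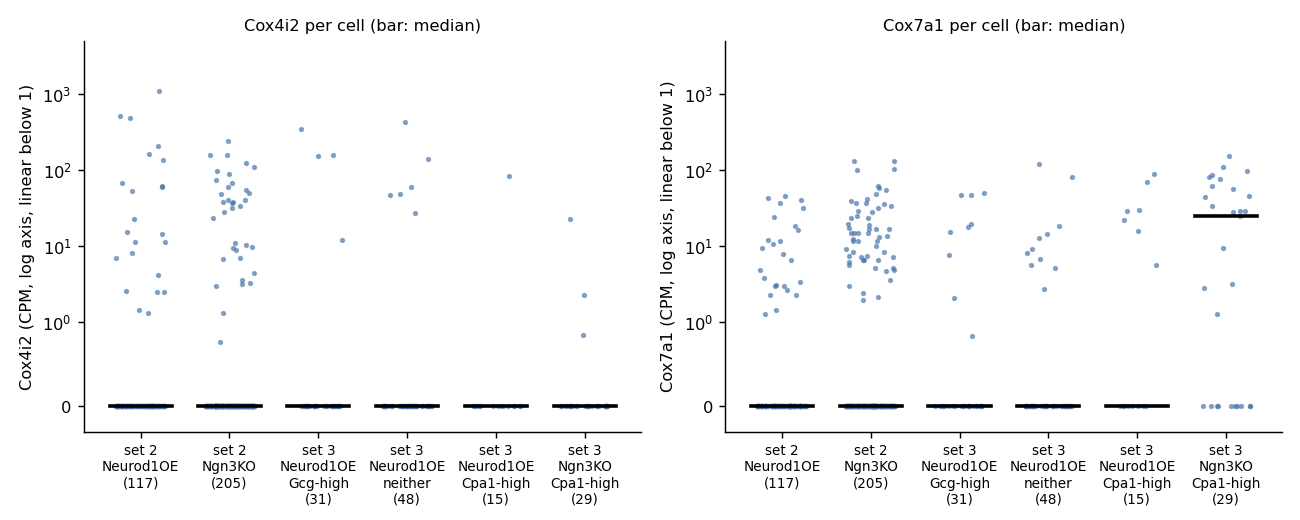
CPM of the rare forms Cox4i2 and Cox7a1 in single cells, 1 point per cell, on an axis that is logarithmic above 1 CPM. Cells are shown by genotype in set 2 and by genotype and cell state in set 3. Most cells lie at 0, and few cells reach 100 CPM of Cox4i2. Of the 30 Ngn3KO cells of set 3, 19 had a Cox7a1 read. The Gcg-high cell of that group is not drawn.

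The 4 genes of complex II had similar sums in set 2: Sdha 292 and 271 CPM, Sdhb, the iron-sulfur subunit, 337 and 305, Sdhc, a membrane anchor, 120.7 and 115.4, and Sdhd 222 and 207. All 4 lay below 0 in that genotype comparison, within the 1.5-fold limit. In set 3 Sdha was lower in Ngn3KO (255 and 153.2 CPM), and the other 3 were within the limit (Sdhb 257 and 272, Sdhc 115.3 and 126.7, Sdhd 222 and 159.4 CPM). Over single cells, Spearman's rho of the summed shares between complexes I and IV was 0.80, 0.76, 0.49 and 0.64 over the cells of the 4 groups, in the order above, while that between complexes I and II was 0.30, 0.19, 0.15 and 0.45. Between complexes V and II it was 0.28, 0.32, 0.34 and 0.61, which in set 3 was above some pairs without complex II, such as I and III (0.33) in Neurod1OE and III and IV (0.48) in Ngn3KO. Complex II has the fewest genes and reads, and cells share the total that all shares are divided by, so no test belongs to these values.

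Over cells, the share of all members went with that of the mitochondrial ribosomal genes, with rho of 0.64, 0.49, 0.64 and 0.77. It went with the cytosolic ribosomal genes at 0.46, 0.68, 0.58 and 0.35 and with glycolysis at 0.21, 0.60, 0.52 and 0.49. With Gcg, rho was 0.04, -0.05, -0.23 and 0.17, and with the total reads of a cell 0.29, 0.05, 0.29 and 0.41. Group values mix the title-number blocks in set 2 and the cell states in set 3.

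Members differ from most genes in being short, and length went with the set 3 genotype ratio. The 40 measured members with less than 1000 bases of exon had a median log2 ratio of 0.35 and the 47 longer ones -0.08. Spearman's rho between length and ratio was -0.52 across the 87 members and -0.16 across all genes with a length, and among Cpa1-high cells -0.46 and -0.04. Short genes that are neither members nor cytosolic ribosomal genes were less reduced too, but at each length the members lay above them: below 750 bases 0.45 (27 members) against 0.16, from 1000 to 1500 bases 0.02 (22) against -0.34, and from 2500 bases -0.29 (9) against -0.65. Cytosolic ribosomal genes below 750 bases had a median of 1.11. In set 2 the corresponding rho over members was -0.12. The part of length in the differences between complexes, whose small subunits are the short genes, was not tested.

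**Figure D5:**
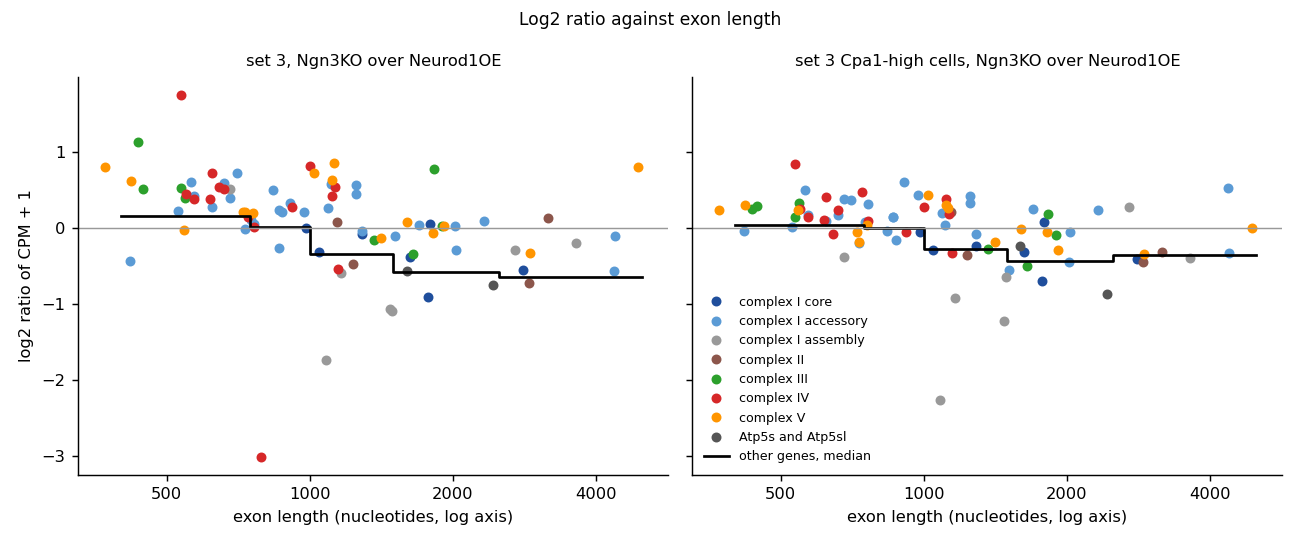
Log2 ratio of Ngn3KO over Neurod1OE in set 3 (vertical axis) against exon length in bases (horizontal axis, logarithmic). The left panel shows all cells and the right panel Cpa1-high cells alone. Each point is 1 measured member, and the line is the median of other genes per length class. In the left panel members lie above the line at most lengths, and both decline as length grows. In the right panel the line rises again from 2500 bases (-0.44 to -0.36), where the members have a median of -0.33.

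In set 3, the counts of lower genes in other lists of mitochondrial function lay near or below the 49.2% of all genes that were lower. Of 20 electron carrier and nucleotide exchange genes 6 were lower and 1 higher in Ngn3KO (median -0.34), of 17 citric acid cycle genes 7 and 1 (-0.46), of 32 other assembly factors 11 and 1 (-0.33), and of 17 genes of mitochondrial dynamics and turnover 7 and 0 (-0.55). The 76 mitochondrial ribosomal genes had 8 lower and 6 higher (median 0.00), and of the 85 cytosolic ribosomal genes 78 were higher (0.94). Among the regulators, 8 of 16 were lower and 2 higher (-0.63), among them Esrra, a nuclear receptor of energy metabolism (15.9 to 4.17 CPM), and Tfb2m, which starts mitochondrial transcription (19.8 to 6.75). In the citric acid cycle, Suclg2 was higher (62.2 to 127.3 CPM) and Idh3b lower (183.4 to 90.8). In set 2 the same lists had medians between -0.17 (citric acid cycle) and 0.02 (regulators), with 2 regulators called higher, of which Esrra (7.68 to 14.2 CPM) went opposite to set 3.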

How the data were processed

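RNA of 447 single cells was measured by Smart-seq3. The authors deposited whole-number read counts, not normalized, for each gene in each cell. Per the submitters' processing notes, Trimmomatic 0.39, HISAT2 2.1.0, featureCounts 2.0.0 and the mouse build mm10 were used; annotation and strand setting are not given in the sources used here. Reads of overlapping genes and near-identical copies, such as the Atp5g genes, may therefore be split or mixed.

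Counts were added up over the cells on either side of a comparison and scaled to CPM by the plain total, without 92 ERCC sequences. Every cell had at least 1000 detected genes, so none was removed. Wells held 1 sorted cell each, and doublets were not called. Ratios are log2 of CPM plus 1. Blocks of set 2 were set by the title number at which Gm12338 passed 10 CPM, and 5 Ngn3KO cells went against it. Sex was called from X- and Y-linked transcripts. For equal depth, cells were thinned to 165298 reads, the 10th percentile. Poisson (CPM) and Clopper-Pearson (cells) intervals are at 95%, and reads are not independent molecules. Exon lengths came from the reference annotation of GRCm38 and promoters from RefSeq.

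Members, lists and comparisons were chosen with earlier results of these data known. Named were the 2 members with the highest mean CPM of each complex and of the assembly factors. Also named were up to 4 members with the largest ratio in each direction of each comparison. All tissue forms, all complex II genes and up to 4 genes of each other list were named too. Members beyond these, among them Ndufv1, Atp5f1, Atp5g1, Ndufa4, Cox5a and Ndufb4 where a comparison did not name them, were chosen after their values were seen. The calculation was tested on simulated data. Python 3.11.15, numpy 2.4.6, scipy 1.17.1, pandas 2.3.3, matplotlib 3.10.9, R 4.3.3, edgeR 4.0.16 (TMM factors only) and DESeq2 1.42.0 (size factors only) were used.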

Additional observations from a re-analysis of the deposited data

How the results depend on the processing

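Of the values that answer a comparison (member medians and counts of called members), 256 moved by less than the limits set and 83 moved further. Of the ratios of single called members, 1056 still reached 1.5-fold in the same direction, 150 fell short of it and 1 changed sign. That 1 was Ndufaf6 in the higher-numbered block, at 0.14 with each cell weighted equally. The tally leaves out the 2-fold limit and the 50 CPM filter, and does not ask whether a member was still measured. Scaling turned the sign of the small genotype median of set 2, from -0.029 to 0.030 with TMM factors and 0.039 with DESeq2 size factors, and left 6 in place of 7 higher members between the Neurod1OE blocks with either. Larger changes came in set 3. The member median of the genotype comparison of set 3 was 0.60 with TMM factors, 0.63 with DESeq2 size factors and 0.24 without the most abundant genes. The count of higher members was then 45, 48 and 23 (22.5%, 23.4% and 13.3% of all genes), and that of lower members 4 with either set of factors. Shares of all genes under these scalings stand beside the counts in the Results for the comparisons within set 3. In Cpa1-high cells the genotype median was 0.35, 0.34 and 0.19, with 18, 17 and 5 members higher and, with TMM factors, 3 lower. For Cpa1-high against Gcg-high cells the median was 0.35, 0.36 and 0.057, with 29 higher under either set of factors and 4, 4 and 14 lower. For cells with neither against Gcg-high cells it was -0.041, -0.060 and -0.052, with 4, 3 and 3 higher and 10, 12 and 11 lower. In the higher-numbered block of set 2 either set of factors left 1 lower member.

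At 2-fold the calls became few, by the construction of that setting. Shares of all genes fell too, for genotype in set 3 to 5.96% higher and 31.8% lower. Higher and lower were then 2 and 4 members for genotype in set 3, 0 and 2 for genotype in Cpa1-high cells, 6 and 3 for Cpa1-high against Gcg-high cells, 2 and 2 for cells with neither, and 1 and 2 for set 3 against set 2. Between blocks they were 1 and 0 in Neurod1OE and 1 and 0 in Ngn3KO. For genotype, 0 were higher and 1 lower in the lower-numbered block and 1 lower in the higher-numbered block.

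The filter at 50 CPM left 0 lower members in set 2, 0 higher and 1 lower in its lower-numbered block and 0 lower in the other. It left 2 lower in set 3, 1 higher and 1 lower in Cpa1-high cells, and 5 higher in cells with neither. Without a filter 1 member was higher in set 2, 2 in the lower-numbered and 1 in the higher-numbered block, and 5 in set 3 against set 2. With 10 CPM added, 0 were higher in the lower-numbered block, 1 lower in the higher-numbered block, 1 higher in Cpa1-high cells, and 4 higher and 3 lower in cells with neither. With cells weighted equally, the lower-numbered block had 0 higher and the other 1 higher and 1 lower. Thinned, these were 0 higher and 1 lower, and 10 and 5 members were lower between blocks in Neurod1OE and Ngn3KO. Leaving out the 2% of deepest cells, 2 were higher in the lower-numbered block, 1 lower in the other and 3 lower in Cpa1-high cells. A state limit of 2000 CPM left 1 higher in Cpa1-high cells, and one of 500 CPM left 3 lower in cells with neither. Settings added after seeing the data moved counts: female cells only gave 2 higher in set 2 (7.38% of all genes). Male cells only gave 22 higher in set 3 (13.6%) and 7 in Cpa1-high cells (14.65%). The shares of all genes moved with the other settings too and are not given for each. Where no cause is named, it was not tested. No paired analysis was possible because the result comes from no test and the title numbers name cells. A total without mitochondrial DNA genes was not run. Depth limits the rare forms and assembly factors, whose values rest on few cells.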
